A study of Mus musculus with 36 samples.

Results

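The crystallins described here are 9 genes, taken by symbol from a gene count table of 55487 genes: Cryaa, Cryab, Cryba1, Cryba2, Cryba4, Crybb1, Crybb2, Crybb3 and Crygs. Crystallins are the abundant soluble proteins of the eye lens. The alpha crystallins Cryaa and Cryab are small heat shock proteins that bind partly unfolded proteins and keep them from aggregating, and Cryab is also made by glia, heart and skeletal muscle. The beta crystallins (Cryba and Crybb genes) and the gamma crystallins (Cryg genes) form a separate superfamily of compact structural proteins, and several have been described in retina and other tissues outside the lens.

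Levels were measured by bulk RNA-seq in 36 libraries from C57BL/6 mice aged 2 to 4 months, 12 libraries for each of 3 tissues. These were the unmyelinated optic nerve (UON, a short segment just behind the eye), the myelinated optic nerve (MON, taken behind the discarded myelin transition zone) and the retina. Each tissue had 6 groups. One was of bilaterally naïve mice. Crushed nerves, in which 1 optic nerve was squeezed with forceps, were taken at 3 D and 2 W. The glaucoma model, in which microbeads were injected into the anterior chamber of 1 eye, was taken at 3 D, 2 W and 6 W. RNA of 2 female mice made 1 library of each group and RNA of 2 male mice the other, with no transgene, so n = 2 pools in each group, and mouse and sex differences cannot be told apart between them.

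Total counts were 16.2 to 58.5 M in UON, 16.3 to 78.1 M in MON and 19.9 to 56.0 M in retina. Gfap, the astrocyte filament protein, averaged 14427 ± 2664 CPM in naïve UON and 10741 ± 2750 in naïve MON, against 18.1 ± 1.13 in naïve retina (SD, n = 2 pools). The sex of every pool fitted its label (36 of 36 libraries). In tissue as mixed as this, fewer cells of a type and less RNA per cell cannot be told apart.

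Levels within a gene are given as CPM, counts scaled to library size, with the female pool first and the male pool second. A level compared between genes is given as FPKM, fragments scaled to transcript length and library size. A read pair adds about 4 estimated counts, and a level under 12 counts, the floor of 3 read pairs, is near the limit of detection. In a single library 12 counts came to 0.191 to 0.736 CPM. This limit covers counting error only.

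The genes lie at 7 places on GRCm38. Cryaa (ENSMUSG00000024041) is at chr17:31677807-31681733 on the plus strand, and Cryab (ENSMUSG00000032060) at chr9:50751325-50756636 on the plus strand. Cryba1 (ENSMUSG00000000724) is at chr11:77718615-77725283, Cryba2 (ENSMUSG00000006546) at chr1:74889934-74893143 and Crygs (ENSMUSG00000033501) at chr16:22805203-22811577, all on the minus strand. On chromosome 5, Cryba4 (ENSMUSG00000066975, chr5:112246493-112252518, minus strand) and Crybb1 (ENSMUSG00000029343, chr5:112255815-112269585, plus strand) point away from each other with 3296 bases between them. Also there, Crybb2 (ENSMUSG00000042240, chr5:113058258-113070117) and Crybb3 (ENSMUSG00000029352, chr5:113075839-113081584) lie on the minus strand, 5721 bases apart. Opposite-strand genes overlap some of them: Hspb2 shares 1030 bases with Cryab, all of Cryba1 lies inside the span of Nufip2, the antisense gene AC090881.2 covers Cryaa, and the pseudogene Gm43247 lies within Crybb2. The counting is not stated to use strand, so reads within shared exons cannot be told apart. For Cryab, only the transcripts Cryab-202 and Cryab-206 reach into the span of Hspb2. Over 12 libraries each, they held 1.90% and 0.455% of Cryab counts in MON and 1.60% and 0.356% in UON.

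The promoters of 4 of the genes are printed because these genes carry the patterns described below. They are the 250 bases before the start site from RefSeq, GRCm38.p6, 5′ to 3′ on the strand of the gene. Capitals mark matches of the motifs searched on both strands, which were the TATA box TATAAA, the half-site TGCTGA bound by large Maf proteins (transcription factors that drive lens crystallin genes), its longer form (the extended Maf response element), which overlaps the half-site, and the heat shock elements GAANNTTC and TTCNNGAA. The positions are chr17:31677681-31677930 (plus) for Cryaa, chr16:22811411-22811660 (minus) for Crygs, chr5:112255570-112255819 (plus) for Crybb1 and chr5:112252519-112252768 (minus) for Cryba4.
Cryaa: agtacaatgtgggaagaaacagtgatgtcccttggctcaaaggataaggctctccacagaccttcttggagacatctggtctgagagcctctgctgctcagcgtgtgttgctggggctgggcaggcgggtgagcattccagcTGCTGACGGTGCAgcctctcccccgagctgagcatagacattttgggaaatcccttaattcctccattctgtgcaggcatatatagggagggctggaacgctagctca
Crygs: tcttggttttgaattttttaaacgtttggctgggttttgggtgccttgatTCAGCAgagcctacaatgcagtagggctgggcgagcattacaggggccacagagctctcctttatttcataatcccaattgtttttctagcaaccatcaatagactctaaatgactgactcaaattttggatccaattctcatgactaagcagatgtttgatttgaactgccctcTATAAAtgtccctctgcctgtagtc
Crybb1: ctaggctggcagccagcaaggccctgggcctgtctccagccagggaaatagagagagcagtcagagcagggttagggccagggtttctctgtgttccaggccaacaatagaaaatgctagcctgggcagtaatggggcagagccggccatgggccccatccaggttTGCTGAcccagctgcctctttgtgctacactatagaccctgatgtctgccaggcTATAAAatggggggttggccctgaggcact
Cryba4: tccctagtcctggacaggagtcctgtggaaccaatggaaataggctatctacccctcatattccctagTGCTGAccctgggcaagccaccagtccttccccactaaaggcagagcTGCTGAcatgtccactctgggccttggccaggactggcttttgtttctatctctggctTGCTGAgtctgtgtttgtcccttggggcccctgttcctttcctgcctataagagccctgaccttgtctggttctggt

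In Cryaa the longer Maf form begins 108 bases before the start. In Crybb1 and Crygs the TATA box begins 30 and 25 bases before it. Cryba4 has no TATA box match in this window but holds 3 half-sites. RefSeq promoters matched 8 of the 9 genes, all but Cryab. Of those 8, 7 held TGCTGA (all but Crybb2), against 16.1% of 32851 mouse promoters of the same length. The longer form was in 2 of 8 (Cryaa and Crybb3), against 0.323% of promoters, and TATAAA in 3 of 8 (Cryba1, Crybb1 and Crygs), against 12.4%. The heat shock element TTCNNGAA was in 1 of 8 (Cryba1), against 7.17%, and GAANNTTC in 0 of 8, against 6.69%. A match describes the letters only.

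In naïve tissue Cryab was by far the most abundant crystallin, with FPKM of 1059 ± 23.6 in MON, 365 ± 11.2 in UON and 47.6 ± 0.358 in retina (SD, n = 2 pools). Crygs came next in UON with an FPKM of 12.02 ± 1.916, against 2.196 ± 0.965 in MON and 0 in both retina pools. Crybb1, a structural lens protein, had an FPKM of 4.71 ± 0.101 in MON, 1.97 ± 0.769 in UON and 1.15 ± 0.057 in retina. Naïve mean FPKM was highest in MON for 5 of the 9 genes (Cryaa, Cryab, Cryba4, Crybb1 and Crybb2). It was highest in UON for Crygs and Cryba1, and in retina for Crybb3 and Cryba2. Cryaa, Cryba1, Cryba2 and Crybb2 had so few counts in naïve tissue that their order is near the detection limit. For Crybb3 the order of UON and MON was reversed by TPM, the other length-scaled value of the same libraries.

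**Figure D1:**
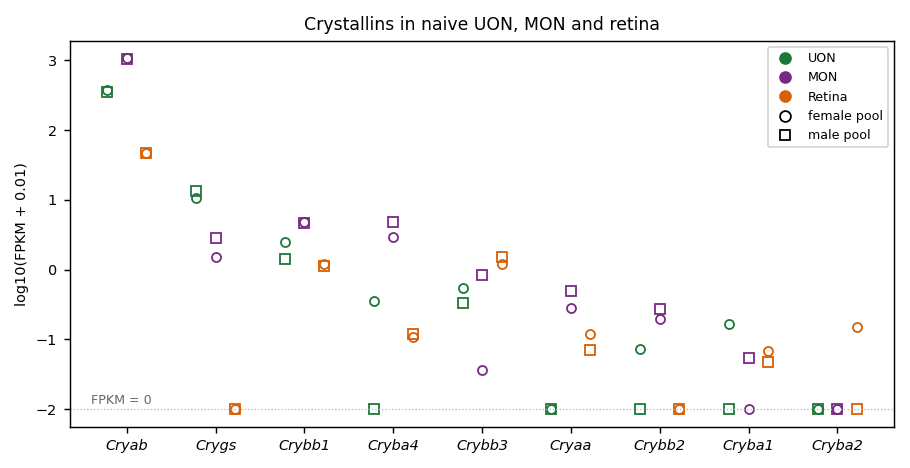
Naïve levels of the 9 crystallins as log10 of FPKM plus 0.01, with 1 point for each pool (circles female, squares male) and a colour for each tissue. Cryab stands above the other genes in every tissue, Crygs is highest in UON and at 0 in retina, and the 4 genes at the right lie near 0.

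The 3 tissues were compared in naïve mice to ask how the nerve regions and retina differ before injury. Cryab was highest in MON and lowest in retina, while Crygs was highest in UON. The Cryab level was 1391 and 1106 CPM in naïve MON, 422 and 430 CPM in naïve UON, and 43.5 and 42.0 CPM in naïve retina. The groups did not overlap, and all 3 differences passed edgeR's quasi-likelihood test with Benjamini-Hochberg adjustment. Its log2 fold change was -1.57 ± 0.23 for UON over MON (SE, adjusted p = 0.00713). For Cryab it was 3.36 ± 0.24 for UON over retina (adjusted p = 7.22e-05) and 4.93 ± 0.26 for MON over retina (adjusted p = 3.33e-05).

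The Crygs level was 11.4 and 15.2 CPM in naïve UON, 1.86 and 3.06 CPM in naïve MON, and 0 in both naïve retina pools. Crygs encodes gamma S crystallin, the gamma crystallin that persists in the adult lens cortex. Its UON over MON difference was 2.44 ± 0.51 on the log2 scale (SE, adjusted p = 0.0347). Both nerve regions were called higher than retina for Crygs (adjusted p = 0.000214 for UON and 0.000611 for MON). Since naïve retina was at 0, these folds are bounds against the floor of 12 counts over the group: at least 104-fold higher in UON and at least 19.2-fold higher in MON.

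Among the beta crystallins, Crybb1 and Cryba4, the divergent neighbours on chromosome 5, were both higher in naïve MON than in retina. Crybb1 was at 5.93 and 4.95 CPM in MON, 2.72 and 1.65 CPM in UON, and 1.06 and 0.968 CPM in retina. The Crybb1 difference between MON and retina was 2.48 ± 0.61 on the log2 scale (SE, adjusted p = 0.0202). For UON over MON it was -1.37 ± 0.59 (adjusted p = 0.211), which did not pass, although the pools of the 2 regions did not overlap.

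Cryba4, an acidic beta crystallin, was at 3.20 and 4.71 CPM in naïve MON. In naïve UON it was at 0.351 and 0 CPM, and in naïve retina at 0.0799 and 0.0922 CPM, which is 4 counts in each retina pool. The test called Cryba4 higher in MON than in retina (log2 fold change 5.65 ± 1.61 SE, adjusted p = 0.0347). With 2 read pairs in retina, the ratio of mean CPM was 45.9 with a 95% counting interval of 12.7 to 379. For UON over MON the Cryba4 difference was -4.91 ± 1.61 (SE, adjusted p = 0.110), which did not pass.

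Crybb3 was near the floor in naïve nerve but not in retina. It was at 1.14 and 1.13 CPM in naïve retina, 0.482 and 0.283 CPM in UON, and 0.0636 and 0.942 CPM in MON. None of its 3 naïve differences passed, and the 2 MON pools differed from each other by more than the tissues did. Cryaa was at 0.493 and 0.471 CPM in naïve MON (31 and 8 counts), at 0 in both UON pools and at 4 counts in each retina pool, with no difference called.

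Calls needed both an adjusted p under 0.05 and an absolute log2 change over 1. Of the 9 crystallins, 6 had enough counts to be tested in naïve tissue: Cryaa, Cryab, Cryba4, Crybb1, Crybb3 and Crygs. Between UON and MON, 2 of the 6 were called, where 9.63% of the 23685 genes tested were called in either direction. Between UON and retina 2 of 6 were called (31.7% of all genes), and between MON and retina 4 of 6 (27.6%). Crygs had 0 counts and Cryba4 had 4 in each naïve retina pool, so both entered the test through nerve, and nothing is read from the shares of members called against retina. DESeq2 called the same pairs and Cryba4 for UON over MON (-4.99, adjusted p = 0.00284), with 17%, 37.1% and 33.4% of all genes called in the 3 comparisons.

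The Crygs call between UON and MON was lost with upper-quartile scaling (log2 fold change 2.32, adjusted p = 0.0552) and with all 36 libraries in 1 fit (2.46, adjusted p = 0.218). It was also lost without either UON pool or either MON pool, while the log2 fold change stayed at 2.25 to 2.65. For UON over MON, UON over retina and MON over retina, the share of all genes called was 9.2%, 32.2% and 27.2% with upper-quartile scaling, 9.75%, 31.6% and 27.6% with RLE scaling, 7.84%, 19.5% and 17.1% with no filter and 10.1%, 33.9% and 29.1% with no sex term. The MON over retina call of Crybb1 was lost without either MON or either retina pool (adjusted p = 0.0812 to 0.128). That of Cryba4 was lost without the female or the male MON pool, or without the female retina pool (0.0597 to 0.362). The Cryab calls held under every setting and without any 1 library.

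Over all genes tested in naïve tissue, edgeR called 4.83% higher and 4.8% lower for UON over MON, 18.2% higher and 13.5% lower for UON over retina and 16.7% higher and 10.9% lower for MON over retina. Marker genes of cell types also differed between the naïve tissues. All 10 photoreceptor genes tested were called lower in both nerve regions than in retina. All 11 oligodendrocyte and myelin genes tested were called lower in UON than in MON (median log2 fold change -3.17) and higher than retina in UON (7.46) and in MON (10.66). Of 8 astrocyte genes, 2 were called higher and 1 lower in UON than in MON, and 6 were higher than retina in both nerve regions. All 10 microglia genes, a list added after the Crybb1 values were seen, were called higher than retina in both nerve regions, and 1 was higher and 1 lower in UON than in MON. The part of cell type shares in the crystallin differences was not tested.

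Cryab was not the only small heat shock gene with a regional difference. Of the 7 others on the list, 4 were called higher and 1 lower in UON than in retina, and 4 higher and 1 lower in MON than in retina. Hspb7, 1 of the 4 in both, had 0 counts in both naïve retina pools. It entered the test through nerve, so nothing is read from its calls. Hspb8, a partner of the co-chaperone Bag3, was at 200 and 216 CPM in naïve UON, 210 and 233 CPM in MON, and 7.05 and 6.92 CPM in retina. Hspb1 was at 282 and 328 CPM in UON, 129 and 180 CPM in MON, and 9.75 and 9.78 CPM in retina. Neither was called between UON and MON, where Hspb1 had an adjusted p of 0.0387 but a log2 fold change of 0.96, inside the limit. Hspb6 was the only one of the 7 called between them, with a log2 fold change of -1.56 for UON over MON (adjusted p = 0.00464), and it was highest in retina. Hspb2, the neighbour that overlaps Cryab, was at 9.73 and 6.83 CPM in UON, 3.33 and 3.36 CPM in MON, and 0.440 and 1.01 CPM in retina. Its UON over MON difference was 1.31 (adjusted p = 0.235), so its mean lay above MON in UON while that of Cryab lay below.

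Of the 16 genes of the general heat shock response, 0 were called between UON and MON by edgeR, 3 were higher and 2 lower in UON than in retina, and 2 were higher and 3 lower in MON. Bag3 was among those higher in nerve (log2 fold change 4.70 for UON and 4.06 for MON over retina), and the chaperone Hsp90aa1 was lower (-2.34 and -1.58). Of the 15 regulators of crystallin genes listed, 13 were tested. Against retina, 5 were higher and 3 lower in UON, and 6 higher and 5 lower in MON. Maf was higher in both nerve regions (2.30 and 1.90 on the log2 scale) and Pax6, the eye and lens master regulator, was lower (-2.69 and -3.90). Other called regulators of the list, higher and lower ones, changed more than Maf and are not named. Nothing is read from the choice of Maf.

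Of 7 other lens crystallin genes, only Crygn, a gamma crystallin with expression outside the lens, had enough counts for a test in naïve tissue. It was at 0.460 and 0.589 CPM in UON, 0.732 and 2.59 CPM in MON and 0 in both retina pools, and was called higher than retina in both nerve regions. Crygn entered the test through nerve, with 21 and 25 counts in UON and 46 and 44 in MON, so nothing is read from these calls. Of 21 lens cell markers, 10 were tested. Between UON and MON 0 of them were called higher and 1 lower in UON, and against retina 2 were called higher and 1 lower in each nerve region. Birc7, 1 of the 2 higher, had 0 and 14 counts in the naïve retina pools. It entered the test through nerve, so nothing is read from its calls. The 1 called between UON and MON was Bfsp2, a lens beaded filament gene. It was at 67.6 and 55.8 CPM in MON, 11.4 and 8.81 CPM in UON, and 1.38 and 0.669 CPM in retina (log2 fold change -2.65 for UON over MON, adjusted p = 0.00297). Tdrd7, a Tudor domain gene of the same list, went the other way, at 118 and 96.8 CPM in UON, 75.7 and 45.6 CPM in MON and 327 and 312 CPM in retina. Its difference of 0.83 for UON over MON was not called (adjusted p = 0.0635), and it was called lower than retina in both nerve regions.

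The share of counts on transcripts annotated as coding differed between the members. The main coding transcript of Cryab held a median of 87.6% of Cryab counts in UON (range 19.1 to 92.8%), 85.5% in MON (44.3 to 88.5%) and 83.4% in retina (51.2 to 94.7%), over 12 libraries each. Crygs has 1 annotated transcript, and all Cryba4 and Crybb1 counts were on coding transcripts. Of 166 Cryaa counts in MON, 142 (85.5%) were on coding transcripts, against 6 of 16 (37.5%) in UON. For Crybb2 the coding share was 13 of 30 counts (43.3%) in MON and 47 of 49 (95.9%) in UON, and for Cryba2 it was 0 of 4 in MON. The Cryba1 counts in nerve fell on the retained intron transcript: 25 of 27 (92.6%) in MON and 27 of 27 in UON. For Crybb3, 25.6% of counts in MON and 31.2% in UON were on retained intron transcripts.

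After optic nerve crush, the study asked how each region responds to direct axon injury. Crygs was at higher CPM in all 4 crushed pools of UON, and in all 4 of MON, than in both naïve pools of that region. Crybb1 was at lower CPM in all 4 crushed pools than in both naïve ones in MON, in UON and in retina. Cryab was at higher CPM in UON and lower CPM in MON at 2 W. None of these differences passed edgeR's test after adjustment. The share of all genes whose pools separate in this way was not counted. Nothing is therefore read from such separation alone, here or in the other comparisons. The crush and glaucoma comparisons of a tissue share its naïve libraries.

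Crygs in UON was at 60.1 and 62.5 CPM at 3 D after crush and at 20.3 and 86.4 CPM at 2 W, against 11.4 and 15.2 CPM in naïve UON. The 3 D pools were close to each other, while the 2 W pools were far apart. The log2 fold change was 2.28 ± 0.54 at 3 D (SE, unadjusted p = 0.00381, adjusted p = 0.818) and 1.79 ± 0.54 at 2 W (SE, unadjusted p = 0.0128, adjusted p = 0.489), by edgeR. DESeq2 called both (adjusted p = 0.00373 and 0.0316). At 3 D the edgeR test also called Crygs without the male 2 W crush pool (log2 fold change 2.25, adjusted p = 0.0442). In MON, Crygs was at 3.68 to 5.29 CPM after crush, against 1.86 and 3.06 CPM in naïve MON. All 4 crushed MON pools lay above both naïve ones as well, with log2 fold changes of 1.06 at 3 D and 0.70 at 2 W that were not called (edgeR adjusted p = 0.345 and 0.648).

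**Figure D2:**
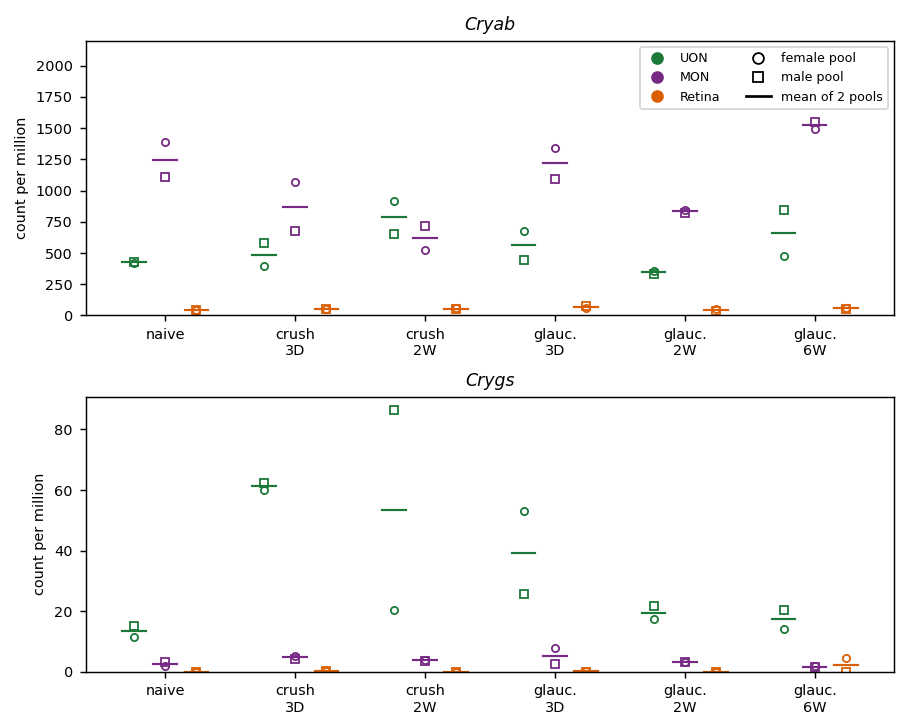
Cryab (top) and Crygs (bottom) in CPM in all 36 libraries, by group along the horizontal axis (glauc. is the glaucoma model), with circles for female pools, squares for male pools and a line at the mean of 2 pools. The Cryab level in MON runs from 527 to 1551 CPM and that in retina from 32.3 to 77.7 CPM, and the highest Crygs levels are in crushed UON.

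Cryab in UON was at 393 and 577 CPM at 3 D after crush and 914 and 655 CPM at 2 W, against 422 and 430 CPM in naïve UON. In MON it was at 1068 and 674 CPM at 3 D and 527 and 719 CPM at 2 W, against 1391 and 1106 CPM in naïve MON. At 2 W the crushed pools lay above the naïve pools in UON and below them in MON, so that the mean level in UON exceeded that in MON. The log2 fold change at 2 W was 0.89 ± 0.36 in UON (SE, edgeR adjusted p = 0.529) and -0.88 ± 0.39 in MON (SE, adjusted p = 0.326). The difference between these responses was tested directly and was 1.79 ± 0.52 (SE, unadjusted p = 0.0056, edgeR adjusted p = 0.255). DESeq2 called it (1.89, adjusted p = 0.0164, where it called 3.33% of all genes), as did edgeR with no filter on low counts (1.87, adjusted p = 0.0449, with 1.42% of all genes called).

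Crybb1 in MON was at 1.56 and 0.578 CPM at 3 D after crush and 0.9501 and 1.47 CPM at 2 W, against 5.93 and 4.95 CPM in naïve MON. No crushed pool reached the naïve range, with 16 to 50 counts in the crushed pools. The log2 fold change was -2.32 ± 0.75 at 3 D (SE, unadjusted p = 0.0165, edgeR adjusted p = 0.137) and -2.01 ± 0.74 at 2 W (SE, unadjusted p = 0.0278, adjusted p = 0.234). DESeq2 called the 3 D difference (adjusted p = 0.0399). Its neighbour Cryba4 was between 2.84 and 4.04 CPM in crushed MON, against 3.20 and 4.71 CPM in naïve MON. In UON, Crybb1 was at 0.516 to 0.9996 CPM after crush, against 2.72 and 1.65 CPM, with no difference called.

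Cell type markers of MON also differed after crush. The summed microglia genes were at 1861 and 2062 CPM at 3 D and 4123 and 2688 CPM at 2 W, against 1309 and 1088 CPM in naïve MON, with 1 and 3 of 10 genes called higher. The summed oligodendrocyte and myelin genes were at 44764 and 58379 CPM at 2 W after crush, against 166875 and 122116 CPM, with 1 of 11 genes called lower. Over all genes 3.61% higher and 0.655% lower were called at 3 D and 2.13% higher and 0.595% lower at 2 W. Their part in the Crybb1 and Cryab values was not tested. In the UON at 2 W after crush the same oligodendrocyte sum was 24710 CPM in the female pool and 3276 CPM in the male pool, the same pair in which Crygs was at 20.3 and 86.4 CPM.

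Crybb3 was at 2.40 and 8.39 CPM in MON at 3 D after crush (43 and 406 counts), against 0.0636 and 0.942 CPM in naïve MON (4 and 16 counts). Both crushed pools lay above the naïve ones, but by 2 W the level was 0 and 0.353 CPM. The 3 D log2 fold change was 4.24 ± 0.99 (SE, unadjusted p = 0.00314, edgeR adjusted p = 0.0609). DESeq2 called it (adjusted p = 0.000504), as did edgeR with no filter on low counts, with 5.41% of all genes called. A high level also appeared in a single MON pool at 3 D of glaucoma, with 6.18 CPM in the female pool and 0.725 CPM in the male pool.

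Cryba4 in UON was at 0.968 and 1.66 CPM at 3 D after crush and 2.17 and 3.796 CPM at 2 W, against 0.351 and 0 CPM in naïve UON. All 4 crushed pools lay above the naïve ones, and at 2 W both lay within the MON range of 1.88 to 6.57 CPM. The 2 W log2 fold change was 4.33 ± 1.89 (SE, edgeR adjusted p = 0.551), and DESeq2 called it (4.39, adjusted p = 0.0448). Cryaa was at 0 in all 4 crushed MON pools, where 12 counts came to 0.248 to 0.713 CPM, a limit on both sides of its level of 0.493 and 0.471 CPM in naïve MON, so that no fold is given.

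**Figure D3:**
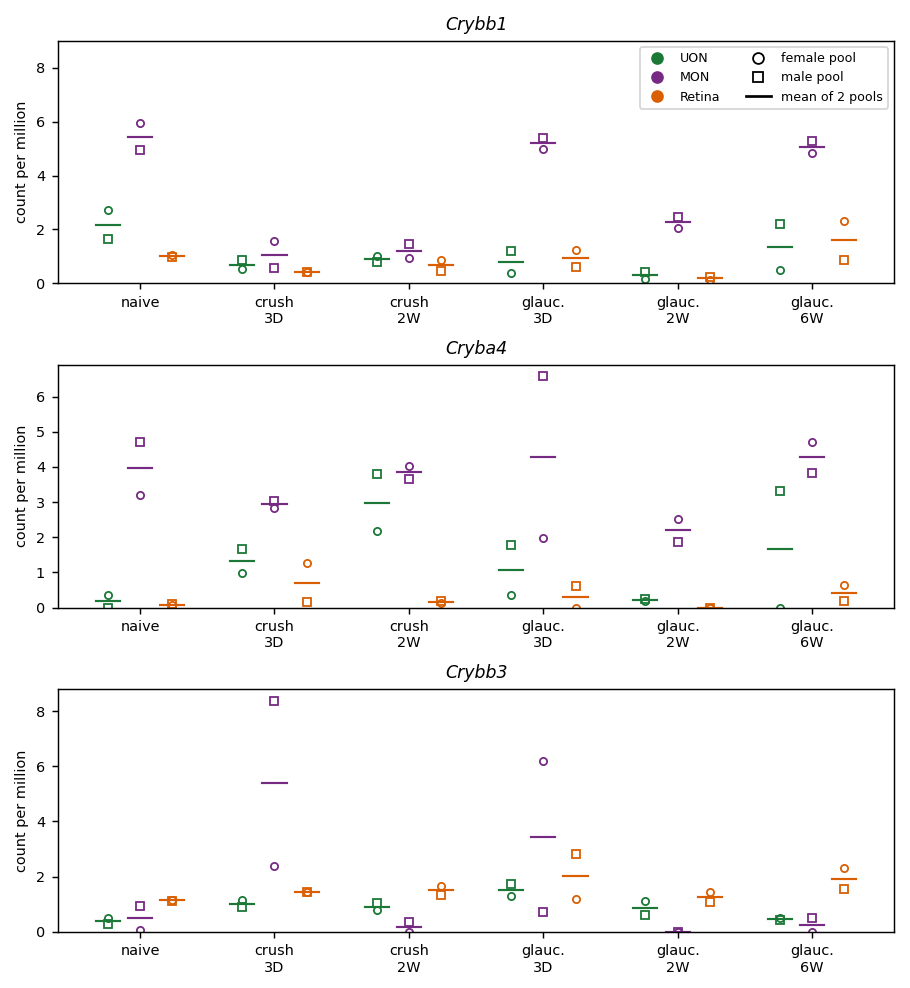
Crybb1, Cryba4 and Crybb3 in CPM in all 36 libraries, drawn as for Cryab and Crygs. Crybb1 in MON lies at 0.578 to 1.56 CPM after crush against 4.95 and 5.93 CPM in naïve MON, and Cryba4 lies above 1.8 CPM in all 12 MON libraries. Crybb3 in MON lies above the naïve pools in both pools at 3 D after crush, and is high in a single pool at 3 D of glaucoma.

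In retina no crystallin difference was called after crush, and the fitted changes of Cryab were small. It was at 52.3 and 50.5 CPM at 3 D and 56.7 and 50.5 CPM at 2 W, against 43.5 and 42.0 CPM in naïve retina. All 4 crushed pools lay above the naïve ones, with log2 fold changes of 0.27 ± 0.12 and 0.28 ± 0.12 (SE, edgeR adjusted p = 0.813 and 0.556). Crybb3 was the steadiest of the others, with 1.34 to 1.67 CPM after crush. Crybb1 was at 0.420 and 0.425 CPM at 3 D and 0.878 and 0.462 CPM at 2 W, all below naïve retina, with adjusted p of 0.844 and 0.835 by edgeR.

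Over both times and 3 tissues, 28 of the 54 crush comparisons of a crystallin with naïve tissue had enough counts for a test. Of these 0 were called by edgeR, 6 had an unadjusted p under 0.05, and DESeq2, the test used in the study, called 5. The share of all genes called by edgeR was also small: 0% in UON at 3 D and 0.0281% at 2 W, 4.26% and 2.72% in MON, and 0.0221% and 0.313% in retina. With no filter on low counts, where edgeR called 1 of the crush comparisons, it called 0.0933% and 0.147% of all genes in UON at 3 D and 2 W and 5.41% and 3.8% in MON. The shares in MON were 3.86% and 2.13% with upper-quartile scaling, 4.16% and 2.6% with RLE scaling, and 6.76% and 4.76% with no sex term, each with 0 crystallins called. By DESeq2, in the 3 comparisons where it called a crystallin, the share of genes called was 1.02% and 2.72% in UON at 3 D and 2 W and 12% in MON at 3 D. The number of crystallins tested was 5 in UON, 6 in MON and 3 in retina.

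In the glaucoma model, which raises eye pressure, the study asked how each region responds over time. Crygs was at higher CPM in UON at 3 D and 2 W than in naïve UON, and Cryab and Crybb1 were at lower CPM in MON at 2 W, but none of these differences passed. Crygs was at 53.0 and 25.5 CPM in UON at 3 D, 17.4 and 21.7 CPM at 2 W, and 14.0 and 20.5 CPM at 6 W, against 11.4 and 15.2 CPM in naïve UON. The 3 D and 2 W pools lay above the naïve ones, and at 6 W the groups overlapped. At 3 D the log2 fold change was 1.62 ± 0.45 (SE, unadjusted p = 0.00814, edgeR adjusted p = 1).

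Cryab in MON was at 1344 and 1095 CPM at 3 D of glaucoma, 844 and 821 CPM at 2 W and 1495 and 1551 CPM at 6 W. Only at 2 W did both pools lie below naïve MON, and only at 6 W above it. The 2 W log2 fold change was -0.57 ± 0.22 (SE, unadjusted p = 0.0366, edgeR adjusted p = 0.545). Crybb1 in MON was also lowest at 2 W, with 5.002 and 5.38 CPM at 3 D, 2.05 and 2.48 CPM at 2 W and 4.82 and 5.29 CPM at 6 W. Its 2 W difference from naïve MON was -1.26 ± 0.41 (SE, unadjusted p = 0.0167, edgeR adjusted p = 0.460). Surface epithelium markers summed to 2552 CPM in the male MON pool at 2 W and 3134 CPM in the female MON pool at 6 W of glaucoma, against 11.1 to 35.9 CPM in the other 10 MON libraries. Cryab in those 2 pools was at 821 and 1495 CPM, close to the other pool of each group, and the part of the epithelial RNA was not tested.

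Among the glaucoma times, Crybb1 was lowest at 2 W in the other tissues too. In UON it was at 0.164 and 0.429 CPM (7 counts in each pool), with a log2 fold change of -3.20 ± 1.04 (SE, unadjusted p = 0.0170, edgeR adjusted p = 1). In retina it was at 0.130 and 0.245 CPM (5 and 12 counts), with -2.37 ± 0.73 (SE, unadjusted p = 0.0125, edgeR adjusted p = 0.782). None of the 3 passed, and each level in UON and retina was at or near the floor.

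Cryab in UON was at 679 and 446 CPM at 3 D of glaucoma, 358 and 331 CPM at 2 W and 472 and 843 CPM at 6 W. In retina Cryab was at 57.6 and 77.7 CPM at 3 D, above both naïve pools (log2 fold change 0.66 ± 0.24 SE, unadjusted p = 0.0256, edgeR adjusted p = 0.767). At 2 W it was at 53.6 and 32.3 CPM, and at 6 W at 60.5 and 52.7 CPM, the latter again above both naïve pools (0.40 ± 0.24 SE, adjusted p = 0.870). Crybb3 in retina was between 1.08 and 2.82 CPM in all 6 glaucoma pools. Cryba4 in MON was between 1.88 and 6.57 CPM.

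Of the 81 glaucoma comparisons, 54 had enough counts for a test, 0 were called by edgeR, 10 had an unadjusted p under 0.05, and DESeq2 called 1. The share of all genes called by edgeR was 0% at each of the 3 times in UON and in MON, where the study, with DESeq2, reported changed genes. In retina it was 0.00429% at 3 D, 0% at 2 W and 0.00858% at 6 W. Crystallins tested were 5 in UON, 6 in MON and 7 in retina.

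**Figure D4:**
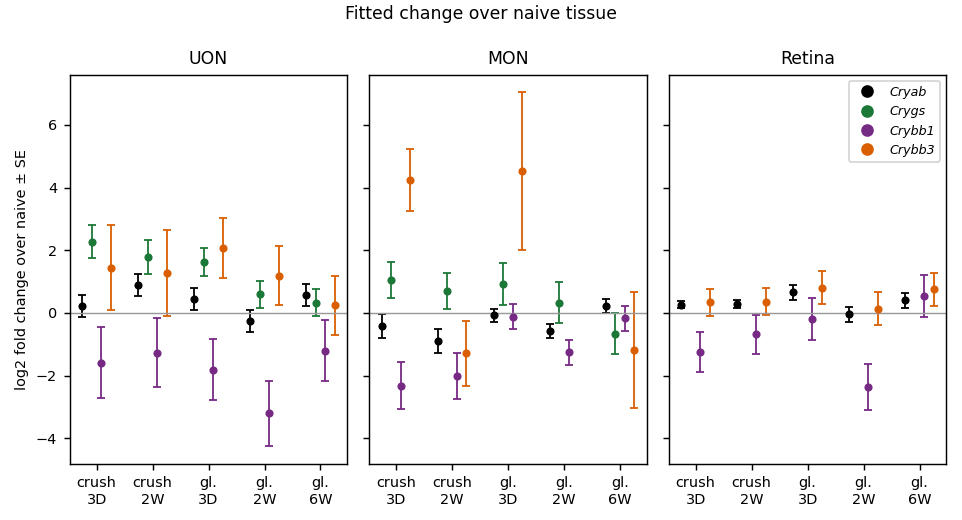
Fitted log2 fold change over naïve tissue (edgeR, ± SE) of Cryab, Crygs, Crybb1 and Crybb3 by tissue and group (gl. is the glaucoma model), leaving out comparisons with a group at 0, so that Crygs has no point in retina. Cryab lies within 1 of no change in every group, and Crygs in UON lies at 2.28 at 3 D after crush, but no point passed the adjusted test.

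The response was then set against that of other tissues and of the other model. Of 135 differences of response between 2 tissues, 112 were tested, 0 were called by edgeR, 16 had an unadjusted p under 0.05 and DESeq2 called 4. Pools of the same group and sex came from the same mice in all 3 tissues, and these fits held a sex term but no term for the pool. With a block for each pool, a fit added after the values were seen, edgeR again called 0 of the 112 and 8 had an unadjusted p under 0.05. Of those 4, 2 were of Cryab after crush and 2 of Cryaa in glaucoma (MON less retina at 3 D and 2 W, where DESeq2 called 0.495% and 0.806% of all genes), which had groups at 0. For UON less MON after crush edgeR called 0.012% of all genes at 3 D and 0% at 2 W, for UON less retina 0.0115% and 0.0689%, and for MON less retina 0.882% and 0.622%, with 0% for every glaucoma difference. With the pool block these shares were 0.04% and 0.092%, 0% and 0.0421%, and 0.618% and 0.512%. The MON less retina difference of Cryab at 2 W after crush was -1.25 ± 0.35 (SE, adjusted p = 0.169 by edgeR and 0.0369 by DESeq2, which called 5.8% of all genes there).

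Crush was set over glaucoma at the same time in 54 comparisons, of which 36 were tested. EdgeR called 0, 6 had an unadjusted p under 0.05, and DESeq2 called 1. The share of all genes called by edgeR was 0% and 0.0418% in UON at 3 D and 2 W, 0.0162% and 0.0485% in MON, and 0.0081% and 0.113% in retina. At 2 W in UON, Cryab was 1.18 ± 0.38 higher on the log2 scale after crush than in glaucoma (SE, unadjusted p = 0.0107, edgeR adjusted p = 0.405). In MON at 3 D Crybb1 was lower after crush by the fitted value of -2.25 ± 0.59 (SE, edgeR adjusted p = 0.355), the difference that DESeq2 called (-2.23, adjusted p = 0.00798, with 3.26% of all genes called). Neither passed edgeR's test.

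A single retina library stood apart for most of the lens crystallins, the female pool at 6 W of glaucoma. Cryaa was at 36.6 CPM (1527 counts) there and at 0.232 CPM or less in the other 11 retina libraries. Crybb2, the major basic beta crystallin of the lens, was at 16.9 CPM (706 counts) against at most 0.403 CPM. Cryba1 was at 9.75 CPM (407 counts) against at most 0.216 CPM, and Crygs at 4.60 CPM (192 counts) against at most 0.319 CPM.

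Cryba2 at 1.60 CPM (67 counts) and Crybb1 at 2.32 CPM (97 counts) were also higher there than in any other retina, where they reached at most 0.439 and 1.24 CPM. The other 3 crystallins did not stand out. Crybb3 was at 2.30 CPM in that pool against 1.08 to 2.82 CPM in the others, Cryba4 at 0.647 CPM against at most 1.26 CPM, and Cryab at 60.5 CPM against 32.3 to 77.7 CPM. The male pool of the same group had 0 counts for Cryaa, Crybb2 and Crygs. With 1 library high and its partner at 0, these levels describe that pool and not the group.

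**Figure D5:**
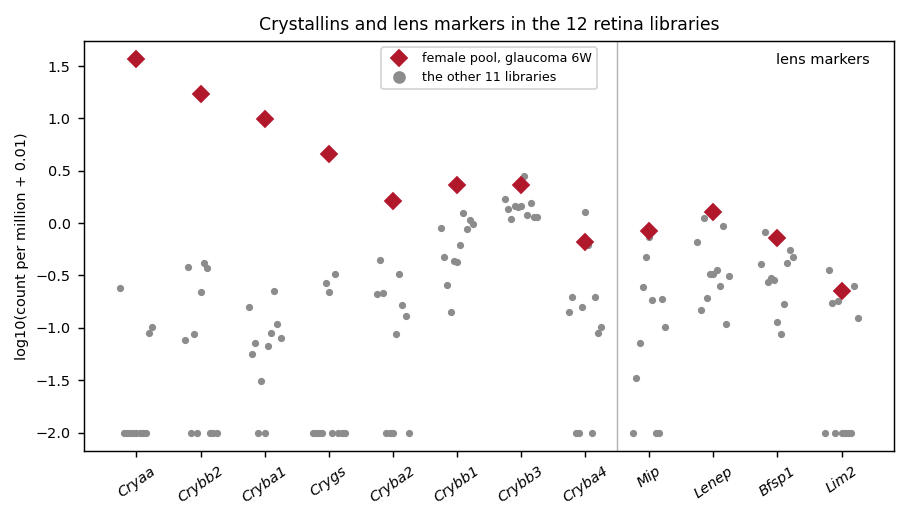
The 8 crystallins other than Cryab and 4 lens markers in the 12 retina libraries, as log10 of CPM plus 0.01, with a diamond for the female pool at 6 W of glaucoma and dots for the other 11 libraries. The diamond lies above every dot for Cryaa, Crybb2, Cryba1, Crygs, Cryba2 and Crybb1, slightly above for Mip (0.838 against 0.734 CPM) and Lenep (1.27 against 1.10 CPM), and among the dots for the rest.

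Other lens genes did not stand out to the same extent in that pool. Mip, the main membrane protein of lens fibres, was at 0.838 CPM (35 counts) against at most 0.734 CPM in the other retinas. Lenep, a lens epithelial gene, was at 1.27 CPM (53 counts) against at most 1.10 CPM, so that both were highest in that pool. Bfsp1 was at 0.718 CPM against at most 0.809, and Lim2 at 0.216 CPM against at most 0.347. Of the gamma crystallins of lens fibres, Cryga had 8 counts (0.192 CPM against at most 0.140 CPM, also the highest of the 12) and Crygb, Crygc, Crygd, Cryge and Crygf had 0.

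The sum of 20 lens markers, all of the list but Tdrd7, was 6.66 CPM in the pool against 2.84 to 5.61 CPM, with 11 of the 20 above 0 against 8 to 13. Tdrd7, which is high in every retina, was at 291 CPM against 283 to 407 CPM. Pigment epithelium markers summed to 460 CPM against 344 to 566 CPM, and surface epithelium markers to 5.68 CPM against 4.26 to 28.2 CPM. The part of lens tissue carried into the dissected retina was not tested.

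The transcripts also differed in that pool. Crybb2-201 held 635 of 706 Crybb2 counts (89.9%) there and 0 counts in the other 35 libraries, while Crybb2-202 held 52 of 61 counts over the other 11 retinas. For Cryba1 the coding transcript held 393 of 407 counts (96.6%) in the pool, while the retained intron transcript held 29 of 35 (82.9%) in the other retinas. For Cryaa, coding transcripts held 1503 of 1527 counts (98.4%) in the pool and 4 of 22 over the other retinas. StringTie assigns counts to transcripts by estimate, and the numbers outside the pool are small.

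Neither Cryaa nor Cryba1 had enough counts in a second library to be tested in glaucoma retina. Crybb2 and Crygs were tested at 6 W and did not pass (edgeR adjusted p = 0.855 and 0.769). DESeq2, with its own filter, called Cryba1 at 6 W (log2 fold change 5.35 ± 1.27 SE, adjusted p = 0.00828, where it called 0.517% of all genes), a call that rests on the female pool. Without the male 6 W pool edgeR called Cryaa and Crybb2 (adjusted p = 0.0222 and 0.0254), which again rests on the female pool alone.

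By a rule set after these values were seen, 9 genes had at least 100 counts in that pool and at least 4 times the highest CPM of the other 11 retinas. They were the crystallins Cryaa, Crybb2, Cryba1 and Crygs, and Prss56, Mir124a-2, Gm49394, Adamts19 and Gm20521. Prss56, a serine protease gene tied to eye growth, was at 258 CPM against at most 57.9 CPM. Adamts19 was at 6.54 CPM against at most 1.49 CPM.

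The genes most like each crystallin in pattern were taken by Pearson's r of log2 CPM, as a description across libraries that share tissue. Over all 36 libraries and 30080 genes, the closest to Cryab were Vamp3 (r = 0.987), Serpinb1a (0.986), Mal (0.985), Selenop (0.981) and Zcchc24 (0.981). Mal encodes a myelin proteolipid. Among the 5 closest to Crygs were Loxl2 (r = 0.940), Gm49172 (0.939), Nupr1 (0.939) and Plod2 (0.936), and the closest to Crybb1 were Cdc37l1 (0.777), Tmeff1 (0.775) and Msmo1 (0.769). The comparisons for Crygs and Crybb1 were chosen after their values were seen.

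For the 8 crystallins other than Cryab over the 12 retinas, the highest mean r was 0.706, for 4632415L05Rik, followed by Trim9 (0.638), Gm44441 (0.615), Iqgap2 (0.607) and Gm47283 (0.601). Without the female pool at 6 W of glaucoma the highest mean r was 0.418, for Oxct1, and none of those 5 genes was among the closest 5.

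Across all 36 libraries, then, Cryab was above the floor in every library, with 1442 counts at the least. Crygs was above the floor in all 24 nerve libraries and Cryba4 and Crybb1 in all 12 of MON. Crybb3 was above it in all 12 retinas, and Cryaa reached it in 6 of 12 MON libraries and 2 retinas. Cryba2 had 0 counts in all 12 UON libraries and was above 0 in 1 of 12 MON libraries, with 4 counts there. Crybb2 reached 12 counts in 1 UON library, the male pool at 2 W after crush with 40 counts (0.748 CPM), in 1 MON library, and in 3 retinas. Cryba1 reached 12 counts in 1 UON library (13 counts, naïve female), in no MON library and in the single retina pool described above.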

How the data were processed

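Bulk RNA-seq of UON, MON and retina was available for 36 libraries, grouped by tissue, treatment, time and sex from the sample titles. Reads were mapped by the authors to GRCm38 (HISAT2, version 2.2.1), and transcripts were quantified against Gencode M25 (StringTie, version 1.3.0). The deposited estimated counts per gene and transcript were made by the authors with StringTie's count script from coverage and transcript length, without normalization. One count stood for 74.9 bases of coverage. The deposited FPKM per gene and TPM per gene are StringTie values by the authors, scaled per library. Total counts were 16.2 to 78.1 M.

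Counts were analysed in R 4.3.3 with edgeR 4.0.16: TMM scaling, filterByExpr (minimum count 10, minimum total 15), and the quasi-likelihood test, with p-values adjusted by Benjamini-Hochberg over all genes tested. Calls took the study's limits, an adjusted p under 0.05 with a log2 change over 1 in size. The study itself applied these limits to DESeq2 fits with time point and sex. It reported changed genes in UON and MON in both models, so 0 called by edgeR is not the outcome of the study's own test. Naïve libraries were fitted with tissue and sex, and each tissue and injury model with group and sex. By the study's methods the 3 tissues were taken from each animal, so pools of the same group and sex share mice across tissues. Sex is thus the pairing term in the naïve fit, and between-tissue differences of response were also fitted with a block for each pool (3 or 4 residual degrees of freedom). Alternatives were upper-quartile and RLE scaling, no filter, no sex term, DESeq2 1.42.0, all 36 libraries in one fit, and leaving out each library. CPM use TMM factors over all 36 libraries, and correlations log2 CPM with a prior count of 2. The edgeR fit was run on counts simulated for MON at 3 D after crush. These held large set changes in genes of higher count, less spread than the data and no sex effect. That check does not cover genes with few counts or the other fits.

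The 9 genes and the lists were chosen with earlier results of these data known. Named genes were the 9 members, Hspb2 as the neighbour of Cryab, some called list genes, defining markers, and the 5 genes most alike in pattern. The called list genes named were at most 4 a list and not always those with the largest changes. Genes outside this, such as those that stood out in 1 retina pool, are marked where named. Pools of a group hold different mice of different sex. The p-values rest on the spread left between pools after the group and sex terms. That spread is taken over all groups of a fit and not from the 2 pools of a group alone. Values of a few named genes are not reported here.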

Additional observations from a re-analysis of the deposited data

How the results depend on the processing

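Of the naïve comparisons of the crystallins, 8 were called, and 7 to 9 under the other scalings, no filter, no sex term, DESeq2 and a single fit of all libraries. Leaving out 1 library gave 5 to 8. After crush 0 were called, against 1 with no filter on low counts, 5 with DESeq2 and 0 to 2 without 1 library. In glaucoma 0 were called, against 1 with DESeq2 and 0 to 2 without 1 library. For differences of response 0 were called, against 1 with no filter, 4 with DESeq2 and 0 without any 1 library. For crush over glaucoma 0 were called, against 1 with DESeq2 and 0 to 1 without 1 library. The cause was not tested. The fits without the replicate block (the sex term) called 8, 0, 0, 0 and 0, so the sex term changed no count. Sex serves as a pairing of the same mice in the naïve fit only. A replicate block by pool of mice, added after the data were seen, also called 0 differences of response, and 2 of the 112 changed sign. Naïve mean levels were highest in MON for 5 genes by FPKM and 5 by TPM. The Crygs call of UON over MON was lost without any 1 of the 4 naïve nerve pools (adjusted p = 0.0988 to 0.133), and the Crybb1 and Cryba4 calls of MON over retina without any 1 of 4 and 3 of the naïve libraries. Crybb1 and Crybb3 at 3 D in MON became calls without either MON crush pool of 2 W, and Crygs for crush over glaucoma in UON at 2 W without the female crush pool (log2 fold change 2.10, adjusted p = 0.0419). Upper-quartile scaling moved the median of all genes by at most 0.24 and no filter by at most 0.38 on the log2 scale. Levels under 12 counts were near the detection limit.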
